A study of Capra hircus with 6 samples.

Results

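The casein genes that could be named on the array were CSN1S1, CSN1S2 and CSN3. They were 3 of 6535 genes named by a single symbol and were represented by 4 of 8379 probes: Bt00006833 for CSN1S1, 1001866285 for CSN1S2, and 1001864570 and Bt00006553 for CSN3. Members were taken by gene symbol, from probes that carry 1 symbol in the platform annotation. Each probe was spotted in duplicate, so the caseins occupied 8 of the 19200 spots of an array. A further casein probe, Bt00007391, is annotated to both CSN2 (beta-casein) and CSN3 and could not be assigned to either gene. It is described apart from the 4 probes. Goat assembly ARS1.2, consulted for gene order only, places CSN1S1, CSN2, CSN1S2 and CSN3 in this order, with CSN3 beyond the enamel protein gene ODAM.

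Caseins are the main proteins of goat milk. They are made by secretory epithelial cells under prolactin, through STAT5, together with glucocorticoid, and they assemble with calcium phosphate into micelles. CSN1S1 encodes alpha-s1-casein and CSN1S2 alpha-s2-casein, calcium-binding phosphoproteins of the micelle, whereas CSN3 encodes kappa-casein, the glycoprotein that coats and stabilises its surface. Goat CSN1S1 is a classical milk protein polymorphism, with alleles known for high, reduced or absent alpha-s1-casein in milk.

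RNA came from the lactating mammary gland of 6 goats, 3 with the Low and 3 with the High CSN1S1 genotype, all fed the control diet without restriction. One Low and 1 High goat formed a pair, and both RNAs of a pair were hybridised together on 2-colour arrays of spotted oligonucleotides. Each of the 3 pairs was run on 2 arrays with the dyes exchanged, with 5 µg of total RNA labelled per channel. The pair was the replicate, so n = 3 throughout, and the spread is that between pairs of single animals. The labels give the genotypes only as Low and High. The scanned image names carried the letters FF in 6 of 6 Low files and AA in 6 of 6 High files. A and F are names of goat CSN1S1 alleles, and F is known for a low output with shortened transcripts. The oligonucleotide sequences were not used here, so where the CSN1S1 probe lies relative to the altered stretch of the transcript is not known. In whole tissue, fewer secretory cells and less casein RNA per cell cannot be told apart.

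CSN1S1 signal was far weaker in the Low goats and still well above background. Its net signal (mean over spot pixels minus local background, in scanner units) was 6168, 8770 and 7098 in the Low goats of pairs 1, 2 and 3, against 39207, 39577 and 39039 in the High goats. The groups did not overlap, and the highest Low goat lay far below the lowest High goat. The share of all probes whose Low and High goats do not overlap was not counted. The Low mean was 7345 ± 1318 and the High mean 39274 ± 275 (SD, n = 3 goats each). As normalised log2 levels they were 12.72, 13.26 and 12.47 in the Low goats, against 15.36, 15.46 and 14.92 in the High goats, with SDs of 0.40 in Low and 0.29 in High. The signal of the CSN1S1 spots was at least 45.3 times the local background in every channel of both genotypes.

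The other casein probes gave overlapping signals in both genotypes. CSN1S2 had net signals of 26274, 31956 and 36215 units in the Low goats of pairs 1, 2 and 3, against 29890, 31380 and 39992 units in the High goats. Within each pair the Low and High values of CSN1S2 lay close together, and the goats of pair 3 were the brightest of both genotypes. The brighter CSN3 probe had 27286, 28430 and 38004 units in the Low goats, against 27209, 18415 and 40755 units in the High goats. Here the High goat of pair 2 was the lowest of all 6 animals. The dimmer CSN3 probe had 2611, 3094 and 2831 units in the Low goats, against 2677, 2135 and 3282 units in the High goats, and again the High goat of pair 2 was the lowest.

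The place of each casein among all probes was taken from the net signal in each of the 12 channels, with rank 1 for the brightest of 8379 probes. Probes bind unequally, so a rank of brightness is not a rank of RNA abundance, but the same probe can be followed between the genotypes. CSN1S1 ranked 120, 50 and 154 in the Low goats (each goat's net signals averaged over its channels), against 2, 2 and 6 in the High goats. In single channels its rank ran from 39 to 156 in Low, with a median of 120.5, and from 1 to 11 in High, with a median of 3.5. CSN1S1 was thus among the very brightest probes in each High channel, and in each Low channel it stayed within the brightest 156.

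CSN1S2 kept its place in both genotypes, with a median rank of 7.5 over the Low channels (3 to 27) and of 7.5 over the High channels (4 to 15). The brighter CSN3 probe had a median rank of 9 in Low (1 to 28) and of 13 in High (3 to 21). The dimmer CSN3 probe had a median rank of 346.5 in Low (125 to 633) and of 378.5 in High (270 to 508). These ranges overlapped for all 3 probes, while those of CSN1S1 did not, and the share of all probes with separate ranges was not counted. Both CSN3 probes are annotated to the same gene and were unequally bright in each of the 12 channels.

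**Figure D1:**
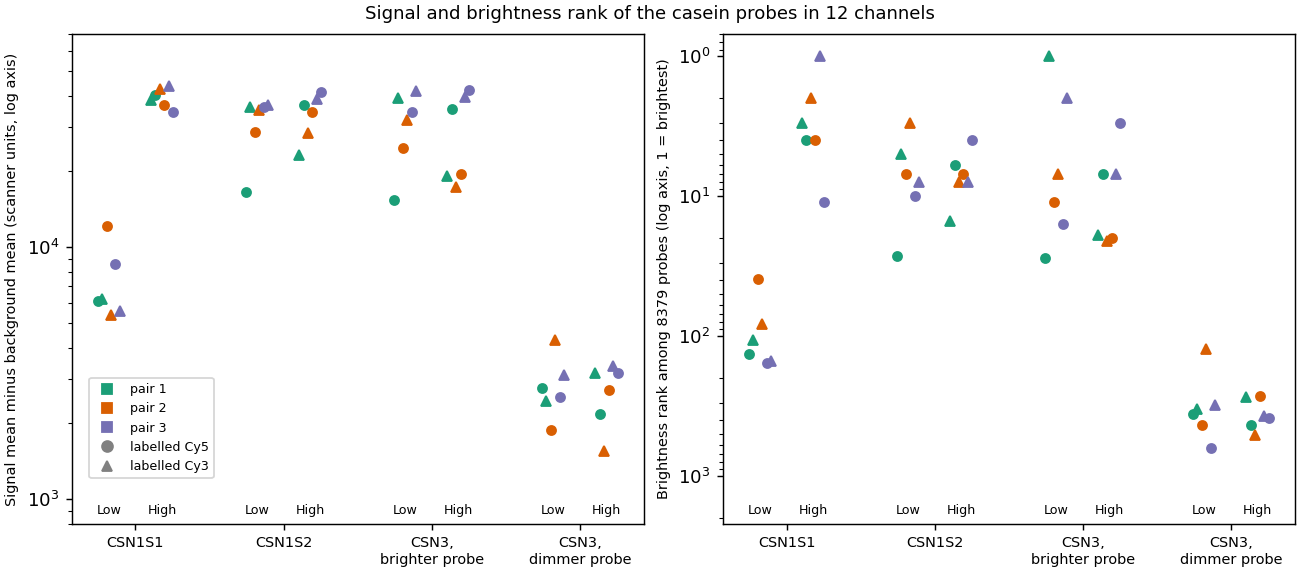
Net signal (left, scanner units, log axis) and brightness rank among 8379 probes (right, log axis, rank 1 at the top) of the 4 casein probes in the 12 channels; each point is 1 channel, coloured by pair and shaped by dye. CSN1S1 lies at ranks 39 to 156 in Low and 1 to 11 in High, whereas the other probes overlap between genotypes.

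By median rank over the 12 channels, CSN1S2 came at place 4 and the brighter CSN3 probe at place 6 of all probes. The other places among the 10 brightest were held by PAGR1 (a partner of histone methyltransferases), the probe annotated to both CSN2 and CSN3 (Bt00007391), ENO2 (an enolase of glycolysis), ZEB1 (a transcriptional repressor), TM7SF2 (a sterol reductase), PAEP (the milk protein beta-lactoglobulin), CCDC174 and MRGBP (a subunit of histone acetyltransferase complexes). Bt00007391 stood at place 2, with mean net signals of 39065 units in Low and 38261 units in High. Its pair ratios were -0.12, 0.08 and 0.22, with a mean of 0.06 ± 0.17 (SD, n = 3 pairs; limma adjusted p = 0.911). The image software marked this probe saturated on 2 arrays. How far readings cut at the top of the scanner's range changed its ratio was not tested. The 4 casein probes together held a median of 1.66% of the summed net probe signal in the Low channels (0.795% to 2.14%), against 2.08% in the High channels (1.79% to 2.40%). CSN1S1 alone held a median of 0.129% in Low and of 0.830% in High, and CSN1S2 held 0.704% in Low and 0.687% in High.

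The upper end of the scanner's range touched the casein spots of the High goats most. The largest value a pixel median reached was 65535 units, the top of the scale. For CSN1S1, 3 of 12 High spots had their pixel median at that ceiling, against 0 of 12 Low spots. The pixel mean plus 1 pixel SD exceeded the ceiling in 8 of 12 High spots of CSN1S1 and in 0 of 12 Low spots. The net signals given above are means of such readings. The pixel means of the High CSN1S1 spots lay in a narrow band from 33467 to 43926 units while their medians spread from 39091 to 65535 units. In Low spots both measures lay close together, with means of 5123 to 12306 units and medians of 5078 to 13121 units.

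The ceiling was reached less often by the other caseins. For CSN1S2, 0 of 12 Low spots and 1 of 12 High spots had a median at the ceiling, and the mean plus SD exceeded it in 1 Low and 5 High spots. For the brighter CSN3 probe, 1 Low and 1 High spot had a median at the ceiling, and the mean plus SD exceeded it in 3 Low and 4 High spots. The dimmer CSN3 probe never came near it, with medians up to 5322 units in Low and 4198 units in High. A reading cut at the ceiling makes the High signal of CSN1S1 too small, and with it the measured difference. The spread between pairs comes on top of this, so the measured ratio is not a strict limit. The High CSN1S1 mean plus SD exceeded the ceiling on 4 of the 6 arrays, on 2 of which at least 1 spot was also marked saturated by the image software. How many pixels were cut on the other arrays is not known. With the marked spots set to missing the ratio was -2.37. Both CSN1S1 spots of pair 3 with Low in Cy5 were then missing. Pair 3 thus rested on its Low in Cy3 array alone, which was at -2.27 in the main fit. The shift to -2.37 therefore mixes the loss of a dye orientation with the loss of cut readings. With pixel medians in place of means the ratio was -2.79.

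**Figure D2:**
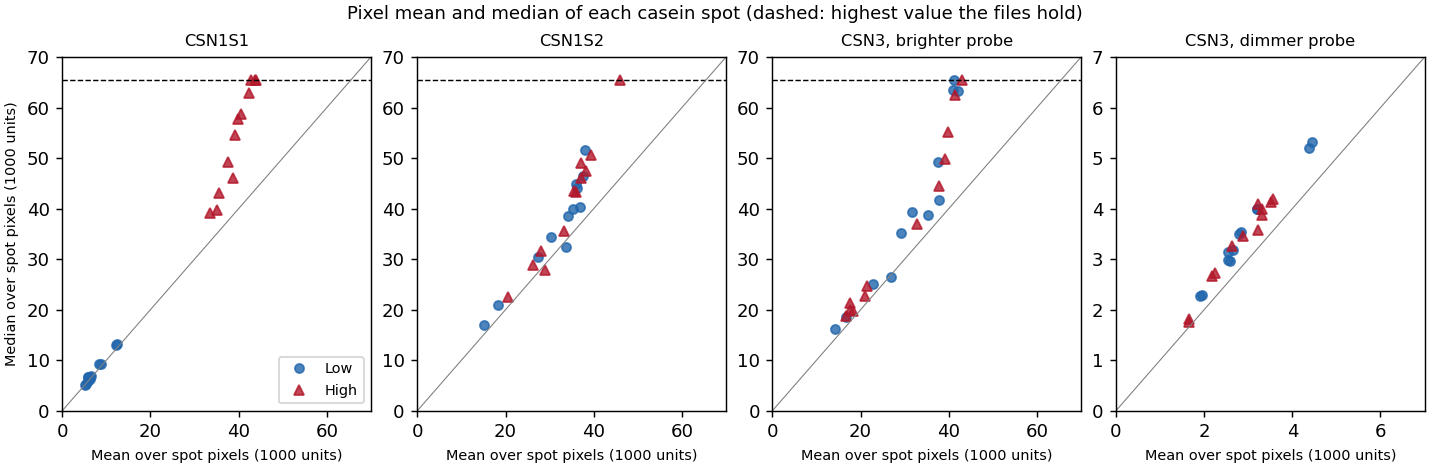
Pixel mean against pixel median of each casein spot (scanner units, scaled as on the axes; Low as circles, High as triangles; grey line, equal values; dashed line, the ceiling of 65535 units; the dimmer CSN3 probe has its own scale). High CSN1S1 spots climb to the ceiling in their medians while their means stay below 43926 units, and Low CSN1S1 spots lie near the line.

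CSN1S1 fell in the Low goats, and CSN1S2 and CSN3 did not pass the test in either direction. The Low over High log2 ratio of CSN1S1, tested against 0 with limma over all probes, was -2.63, -2.20 and -2.44 in pairs 1, 2 and 3. Its mean was -2.43 ± 0.22 (SD, n = 3 pairs; 95% interval -2.63 to -2.22; limma adjusted p = 0.000514). The interval is that of the mean and uses limma's moderated variance, which is drawn toward that of all probes. CSN1S1 varied more between pairs than 94.2% of probes, so the interval is narrower than its own spread alone would give. It does not cover the cut High readings either. The mean ratio corresponded to a level in Low of 18.6% of that in High by pixel means (95% interval 16.2% to 21.4%). By pixel medians it was 14.5%. Of 6378 probes tested, CSN1S1 had the lowest p and the largest absolute ratio. It was the 1 casein probe of 4 to pass the adjusted threshold of 0.05, where 0.110% of all probes passed. At an unadjusted p below 0.05, 1 of the 4 casein probes stood against 5.36% of all probes. The exact two-sided sign-flip permutation over 3 pairs gave p = 0.25 for CSN1S1, the smallest that design allows.

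For CSN1S2 the pair ratios were -0.22, 0.12 and -0.10, with a mean of -0.07 ± 0.17 (SD, n = 3 pairs; limma adjusted p = 0.901). The 95% interval of CSN1S2 ran from -0.24 to 0.10, which is a level in Low between 84.6% and 107% of that in High. The brighter CSN3 probe had pair ratios of -0.05, 0.70 and -0.07, with a mean of 0.19 ± 0.44 (adjusted p = 0.886). Its 95% interval, -0.18 to 0.56, corresponded to a level in Low between 88.5% and 147% of that in High. The dimmer CSN3 probe had pair ratios of -0.02, 0.53 and -0.20, with a mean of 0.10 ± 0.38 (adjusted p = 0.919) and an interval from -0.22 to 0.43. None of these 3 intervals reached the interval of CSN1S1. They too use the moderated variance and are narrower than the spread of each probe alone would give. All 3 intervals held 0, and a change of CSN1S2 or CSN3 within such bounds was not detectable with 3 pairs.

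**Figure D3:**
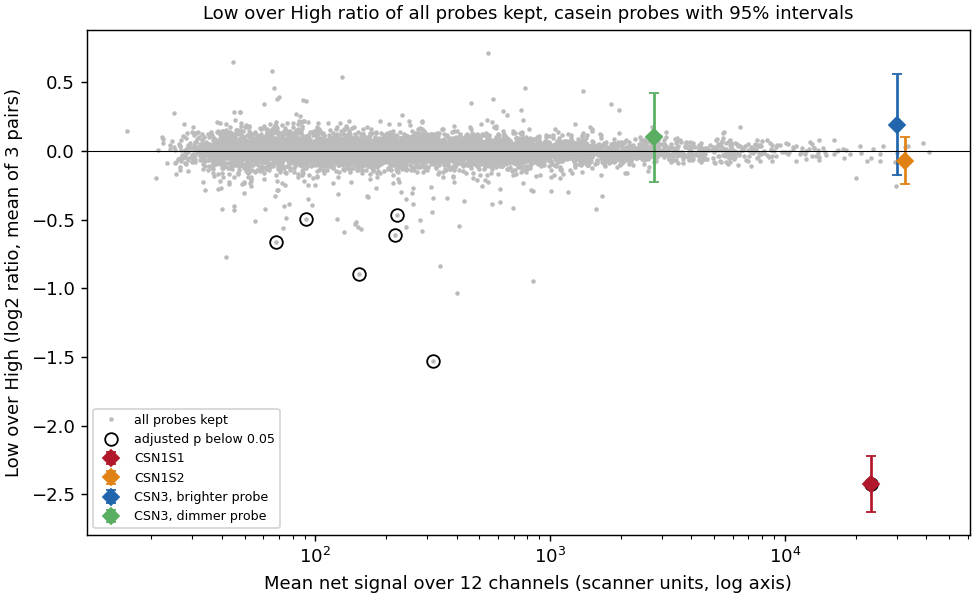
Low over High log2 ratio (mean of 3 pairs) against mean net signal (scanner units, log axis) for the 6378 probes kept; diamonds are the 4 casein probes with 95% intervals, and black rings mark the 7 probes past adjusted p 0.05. CSN1S1 at -2.43 lies far below all other probes, bright or dim, and the intervals of the other 3 casein probes span 0.

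The caseins varied more between pairs than most of the 6378 probes tested, bright and dim together. The SD over the 3 pairs of the brighter CSN3 probe was higher than that of 99.2% of probes and that of the dimmer one higher than that of 98.9%. For CSN1S1 the figure was 94.2% and for CSN1S2 89.1%. A wide spread was not particular to the caseins. Among other milk protein genes the SD ran from 0.01 for ALB to 0.69 for LTF, with 0.30 for BTN1A1. Both CSN3 probes had the same pattern, with pair 2 high and pairs 1 and 3 near or below 0. The difference between them within a pair was -0.03, 0.17 and 0.13, smaller than the distance of pair 2 from the other pairs in either probe. Because the CSN3 mean rests on pair 2, it was -0.06 for the brighter and -0.11 for the dimmer probe without that pair.

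Pair 2 gave the highest ratio of the 3 pairs for all 4 casein probes, and its CSN1S1 ratio of -2.20 was the smallest difference of any pair. Among all 6378 probes, pair 2 held the highest ratio for 33.9%. Among the 11 measured milk protein genes other than the caseins, pair 2 held it for 4. Subtracting the CSN1S2 ratio from the CSN1S1 ratio within each pair left -2.41, -2.32 and -2.34, a mean of -2.36 ± 0.05 (SD, n = 3 pairs). This spread was smaller than that of CSN1S1 alone. It was 0.24 when loess was fitted within sub-grids and 0.12 with pixel medians, and on single arrays the same difference ran from -2.83 to -1.81.

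Set against the mean of CSN1S2 and CSN3 (CSN3 probes averaged), CSN1S1 differed by -2.50, -2.57 and -2.32 in pairs 1, 2 and 3. The mean difference was -2.46 ± 0.13 (SD, n = 3 pairs), a 5.52-fold fall of CSN1S1 relative to the other caseins by pixel means and a 7.01-fold fall by pixel medians. Neither is an exact fold, since High spots of CSN1S1, CSN1S2 and CSN3 all touched the ceiling. Against CSN3 alone it was -2.57 ± 0.26, and CSN1S2 against CSN3 differed by -0.22 ± 0.27. The exact two-sided sign-flip permutation gave p = 0.25 for each difference that involves CSN1S1, the smallest 3 pairs allow, and p = 0.5 for the others. Adjusted over the 5 differences compared, these were 0.417 and 0.5.

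After loess, the ratios of CSN1S2 and CSN3 were lower with Low in Cy5 than with Low in Cy3 in every pair, and those of CSN1S1 had no such order. With Low in Cy5, CSN1S2 had ratios of -0.57, -0.11 and -0.39 in pairs 1, 2 and 3, and with Low in Cy3 it had 0.12, 0.34 and 0.19. After loess the sign of CSN1S2 thus followed the dye on all 6 arrays. Before loess it did not, at -0.48, 0.02 and -0.11 with Low in Cy5 and -0.02, 0.03 and -0.17 with Low in Cy3. The brighter CSN3 probe had -0.41, 0.39 and -0.48 with Low in Cy5 and 0.31, 1.02 and 0.33 with Low in Cy3. The dimmer CSN3 probe had -0.30, 0.19 and -0.68 with Low in Cy5 and 0.25, 0.87 and 0.27 with Low in Cy3. For both CSN3 probes the Cy5 array was the lower of its pair, before loess as well as after it, and pair 2 was above 0 with either dye.

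CSN1S1 had ratios of -2.73, -1.92 and -2.62 with Low in Cy5 and of -2.54, -2.48 and -2.27 with Low in Cy3. All 6 arrays lay below 0, and the Cy5 array was the lower of its pair in pairs 1 and 3 and the higher in pair 2. Before loess CSN1S1 was at -2.65, -1.80 and -2.34 with Low in Cy5 and at -2.69, -2.77 and -2.62 with Low in Cy3, so that the Cy5 array was then the higher in every pair. After loess, taken as the distance of the Low in Cy5 array from the mean of its pair, the dye effect of CSN1S1 was -0.10, 0.28 and -0.17. It lay between -0.47 and -0.23 in all pairs for CSN1S2 and both CSN3 probes, against a median absolute dye effect over all probes of 0.112. Averaging the arrays of a pair removes a dye effect that is equal on both, and the means given above are such averages. Taken alone, the Low in Cy5 arrays gave CSN1S2 a mean of -0.36 (limma adjusted p = 0.0304) and the Low in Cy3 arrays a mean of 0.22 (adjusted p = 0.0984).

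**Figure D4:**
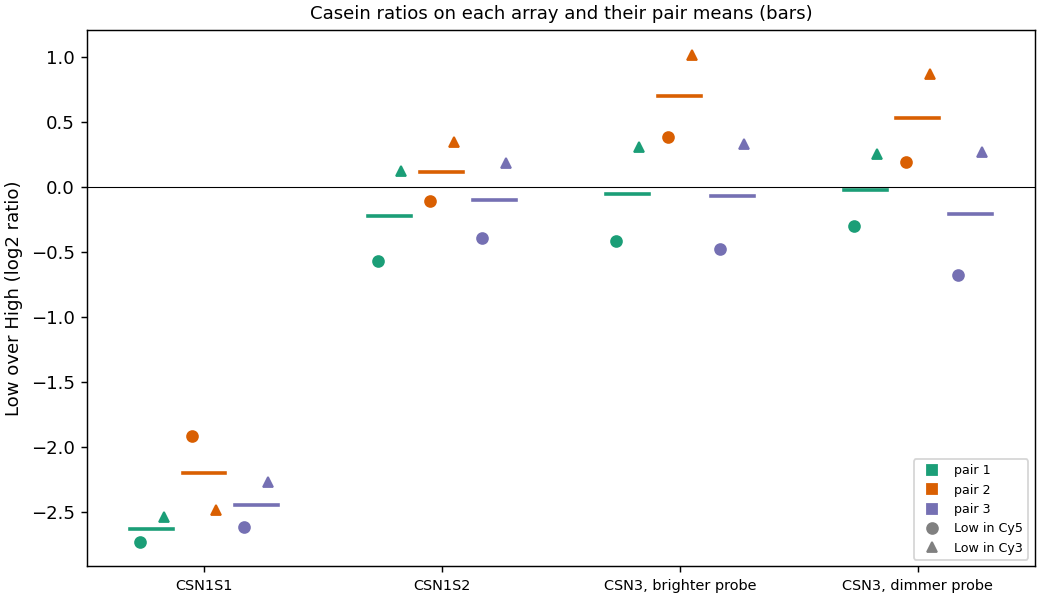
Low over High log2 ratio after loess of each casein probe on each of the 6 arrays (circles, Low in Cy5; triangles, Low in Cy3; colours, pairs), with bars at the means of pairs. CSN1S1 is below 0 on 6 of 6 arrays, from -2.73 to -1.92, and for CSN1S2 and both CSN3 probes the circle lies below the triangle in each pair.

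Duplicate spots repeated closely for CSN1S1 and the dimmer CSN3 probe and less so for the other casein probes. Their log2 ratios differed by at most 0.083 for CSN1S1, 0.41 for CSN1S2, 0.27 for the brighter and 0.09 for the dimmer CSN3 probe on any array. In pair 3, with Low labelled in Cy3, the CSN1S2 spots read 0.39 and -0.02, on either side of 0. The largest difference from the ratio in the authors' deposited table, on any array, was 0.036 for CSN1S1, 0.046 for CSN1S2 and for the brighter CSN3 probe, and 0.016 for the dimmer one. For CSN1S1 the authors' deposited table gave -2.69, -1.91 and -2.60 with Low in Cy5, and -2.53, -2.47 and -2.25 with Low in Cy3. Over the 6 arrays the median difference between duplicate spots was 0.06 for CSN1S1, 0.14 for CSN1S2, 0.08 for the brighter and 0.05 for the dimmer CSN3 probe, each below the SD over pairs.

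Spots beside a casein spot were read because the bright probes are printed next to dim ones. CSK, the C-terminal Src kinase, lies directly before CSN1S1 and had a mean net signal of 586 units in Low and 804 units in High, with a ratio of -0.42 ± 0.08 (SD, n = 3 pairs; limma adjusted p = 0.0701). COL2A1, a cartilage collagen, lies directly after CSN1S1 and had 438 units in Low and 439 units in High, at 0.02 ± 0.17. LEP, the leptin gene, lies before CSN1S2 and was at -0.29 ± 0.21, and the unnamed probe after it did not pass the background filter. LEPR (the leptin receptor) and NSFL1C (a cofactor of the p97 ATPase), beside the brighter CSN3 probe, were at 0.09 ± 0.38 and 0.02 ± 0.05. NCK1 (an adaptor of tyrosine kinase signalling) and WDR24 (a regulator of amino acid sensing), beside the dimmer one, were at 0.0026 ± 0.03 and 0.03 ± 0.07. Of these 7 direct neighbours tested, 0 passed, where 0.110% of all probes passed. CYB5R3, next but one to CSN1S1, did pass, at -0.66 ± 0.15 (limma adjusted p = 0.0409), with mean net signals of 31.9 units in Low and 105 units in High.

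Genes whose log2 levels over the 6 goats were most like those of a casein were ranked by Pearson's r among 4718 named probes kept. The levels share the arrays and their normalisation, and r is given as a description only. For CSN1S1 the closest were CYB5R3 (an NADH-cytochrome b5 reductase; r = 0.969), STXBP5 (tomosyn, of vesicle fusion; r = 0.968) and CSK (r = 0.957). Spots of CSK lie directly beside those of CSN1S1 and spots of CYB5R3 lie next but one. STXBP5 had log2 levels of 7.83, 7.81 and 7.66 in the Low goats of pairs 1, 2 and 3, against 8.09, 8.10 and 8.09 in the High goats. The likeness to CSN1S1 by which it was chosen sets Low apart from High in these levels. Its ratio was -0.32 ± 0.09 (SD, n = 3 pairs; limma adjusted p = 0.158). For CSN1S2 the closest were FAM110A (r = 0.992), KANSL1 (a chromatin regulator; r = 0.975) and RPL4 (a ribosomal protein; r = 0.973). For the brighter CSN3 probe they were FEV (a transcription factor; r = 0.968), NUDT22 (r = 0.950) and ERCC1 (a DNA repair endonuclease subunit; r = 0.944). Among the caseins themselves, the levels of CSN1S1 and CSN1S2 had r = 0.268, those of CSN1S1 and the brighter CSN3 probe r = -0.416, and those of both CSN3 probes r = 0.0961.

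CSN1S1 was the 1 milk protein gene that passed the test. Of 20 genes listed, 16 were on the array and 14 were measured. Of these, 0 rose, 1 fell (CSN1S1) and 13 did not pass, where 0.110% of all probes passed. Their median ratio was -0.03, with 5 above and 9 below 0. Over all 6378 probes the median was 0.0014, with 3245 above and 3133 below. LALBA, which encodes alpha-lactalbumin of the lactose synthase, averaged 17970 units in Low and 22182 in High, with pair ratios of -0.24, 0.11 and -0.46 (mean -0.19 ± 0.29; limma adjusted p = 0.885). PAEP averaged 26529 units in Low and 32697 in High, with pair ratios of -0.35, -0.28 and -0.14 (mean -0.26 ± 0.11; adjusted p = 0.424). PAEP was below 0 in each pair, with each pair nearer 0 than any pair of CSN1S1. As for CSN1S2, the sign of the mean changed with the dye for both genes. With Low in Cy5 alone PAEP was at -0.63 and LALBA at -0.53, and with Low in Cy3 alone they were at 0.11 and 0.15. LTF (lactoferrin) had the highest ratio of the list at 0.35 ± 0.69, with pairs from -0.30 to 1.07.

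**Figure D5:**
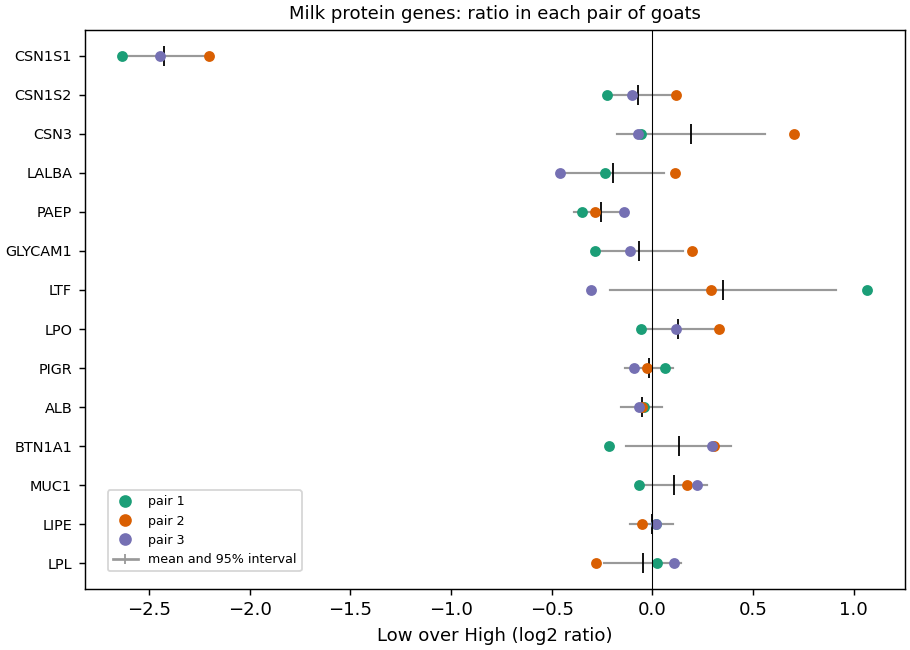
Low over High log2 ratio of the 14 measured milk protein genes in each pair of goats (coloured points), with the mean (tick) and its 95% interval (line) from limma; CSN3 is shown by its brighter probe. CSN1S1 lies between -2.63 and -2.20 in the 3 pairs, and the pairs of the other 13 genes lie between -0.46 and 1.07.

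Regulators of casein transcription gave 0 calls, in a comparison where 0.110% of all probes were called, so the count does not set them apart. Of 37 genes of lactogenic hormone signalling and casein gene regulation listed, 23 were on the array and 18 were measured, of which 0 rose, 0 fell and 18 did not pass. Their median was -0.04, with 4 above and 14 below 0, against 3245 above and 3133 below over all probes. PRLR, the prolactin receptor, was at -0.01 ± 0.17, and STAT5B, a transducer of its signal, at -0.07 ± 0.04. ELF5, an epithelial factor of the secretory lineage, was at -0.01 ± 0.09, and NR3C1, the glucocorticoid receptor, at 0.04 ± 0.18. PRLR averaged only 71.9 units in Low and 68.2 in High, and NR3C1 55.3 and 48.5. NR3C1 exceeded background on 3 of 6 arrays in Low and 2 of 6 in High. At such dim signals the offset added in background correction shrinks a ratio toward 0. With background subtracted PRLR was at -0.14 and NR3C1 at 0.07. Ratios near 0 for these receptors thus do not show a lack of change. STAT5A was on the array but did not pass the background filter, and JAK2 was not among the single symbols of the array. The lowest unadjusted p values of the list were those of HSD11B1, ETS1 and NCOA1. HSD11B1, the enzyme that regenerates active glucocorticoid, had pair ratios of -0.69, -0.36 and -0.50 and a mean of -0.52 ± 0.17 (SD, n = 3 pairs; limma adjusted p = 0.103). It averaged 110 units in Low and 189 in High and was below 0 on 6 of 6 arrays. HSD11B1 passed in 4 of 20 alternatives (each dye orientation alone, without pair 3, and the pair as a random block). In all of these more probes passed than the 7 of the main fit. The counts were 963 with Low in Cy5 alone, 442 with Low in Cy3 alone, 32 without pair 3 and 32 with the random block. Each dye orientation alone also leaves dye effects in the ratio. Passing in these alternatives thus says less about HSD11B1 than passing in the main fit would. With background subtracted the ratio of HSD11B1 was -0.85 (adjusted p = 0.572). ETS1 (a transcription factor) was at -0.15 ± 0.03 (adjusted p = 0.783) and NCOA1 (a nuclear receptor coactivator) at 0.13 ± 0.03 (adjusted p = 0.885). These SDs are over pair means and leave out the dye. With Low in Cy5 alone ETS1 was at 0.13 and NCOA1 at -0.00099, and with Low in Cy3 alone they were at -0.42 and 0.26.

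Genes that phosphorylate, glycosylate, fold and export caseins gave 0 calls too, against the same 0.110% of all probes. Of 46 listed, 33 were on the array and 27 were measured, of which 0 rose, 0 fell and 27 did not pass, with 20 above and 7 below 0 and a median of 0.02, against 3245 above and 3133 below over all probes. FAM20C, the kinase that phosphorylates caseins in the Golgi, was at 0.06 ± 0.10 and its activator FAM20A at 0.08 ± 0.07 (limma adjusted p = 0.885). HSPA5, the chaperone BiP of the endoplasmic reticulum, was at 0.20 ± 0.10 (adjusted p = 0.732) and above 0 on 6 of 6 arrays, with a mean net signal of 79.7 units in Low and 48.0 in High. At such dim signals the offset of 50 shrinks a ratio, and with background subtracted HSPA5 was at 0.55 (adjusted p = 0.832). CSNK1A1, a casein kinase by name that acts in the cytosol and nucleus, was at 0.09 ± 0.03 (adjusted p = 0.885). Its sign followed the dye, at 0.42 with Low in Cy5 alone and -0.24 with Low in Cy3 alone.

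Transcripts with a premature stop codon are known to be removed by nonsense-mediated decay, which needs the exon junction complex. Of 20 genes of mRNA surveillance and decay listed, 7 were on the array and 5 were measured. Of these, 0 rose, 0 fell and 5 did not pass. As 0.110% of all probes were called, the count does not set them apart. The 5 lay above 0 with a median of 0.08, against 3245 above and 3133 below over all 6378 probes. EIF4A3, a core protein of the exon junction complex, was at 0.21 ± 0.05 (limma adjusted p = 0.419) and above 0 on 6 of 6 arrays. RNPS1, a peripheral member of that complex, was at 0.08 ± 0.01 and PABPC1, the poly(A) binding protein, at 0.13 ± 0.20. RNPS1 was dim, at 47.6 units in Low and 38.4 in High. It was at -0.05 with Low in Cy5 alone and at 0.20 with Low in Cy3 alone.

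Markers of the secretory cells that make caseins were read beside these results. Of 14 luminal markers listed, 11 were on the array and 9 measured, of which 0 rose and 0 fell. Their median was -0.01, with 4 above and 5 below 0, against 3245 above and 3133 below over all probes. The summed net signal of the 9 markers came mostly from PAEP and LALBA. It ran from 51774 to 54550 units in the Low goats, against 60281 to 65921 units in the High goats. These sums did not overlap, but how many probes over the whole array separate the genotypes in this way was not counted. Neither PAEP nor LALBA passed the test. The part of these sums in the CSN1S1 result was not tested. CSN1S2 and CSN3 overlapped between the genotypes as given above, and how this relates to the number of secretory cells was not tested. Markers of other cells gave 0 calls: myoepithelium (5 measured, median 0.08, 5 above 0), adipocytes (4, median -0.03, 0 above 0), fibroblasts (2, median -0.02), endothelium (3, median 0.04), leukocytes (6, median -0.02) and red blood cells (1, at -0.04). As 0.110% of all probes were called, 0 calls in marker lists this short do not set them apart. The summed signals of these other lists overlapped between Low and High.

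Over the whole array, 7 of 6378 probes passed the adjusted threshold in limma, 7 lower and 0 higher in Low, and 342 had an unadjusted p below 0.05. On each array 74.1% to 82.2% of probe spots carried neither a manual nor an empty flag, and duplicate spots correlated at r between 0.551 and 0.80 across probes. The number of arrays limits the precision.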

How the data were processed

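Per the labels and the file headers, the authors measured the intensity of each spot and its background with ImaGene 6.0, as pixel means and medians. The deposited pixel SD is a signal in the same units, per the file headers. The authors also deposited log2 ratios per spot. How these were normalized is not given here, since no source used states it. Matched to spots by row number, the deposited log2 values correlated with scanner ratios, turned to Low over High, at r between 0.988 and 0.998 over 2007 bright spots per array, which settled scale and direction. Their column medians were 0.0205, -0.0135, 0.0186, -0.0076, 0.0038 and -0.0094, and their centring is unknown. Labelled and recorded dyes were the same in 12 of 12 files.

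Spots with manual or empty flags were set to missing and saturated spots kept. Mean intensities were corrected by normexp (offset 50). Loess was then fitted per array, control spots excluded (limma 3.58.1, statmod 1.5.0 and R 4.3.3). Duplicate spots, then the 2 arrays of a pair, were averaged as Low over High. A probe was kept (6378) if 1 of the genotypes exceeded the background mean plus 2 SD on at least 1 array per pair. The test was limma's moderated test of pair means against 0, two-sided, adjusted by Benjamini-Hochberg over the kept probes at 0.05. Log2 levels per goat followed Aquantile scaling, and ranks per channel and per goat used unnormalized net signals. A gene with several probes was counted by its brightest. Symbols come from an old cattle annotation: 6840 probes had 1 symbol, 93 had several and 1446 had none.

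The casein probes and gene lists were chosen with earlier results of these data known. Named by rule were the casein probes, the 3 genes most like each casein, the 10 brightest probes, the probes beside casein spots, fixed milk and hormone genes, and of each list the 3 of lowest p. LTF and FAM20C were chosen after their values were seen. The fit was tested on simulated data. Background correction, normalization, flags, filter, variance model, dye orientation, spots, pairs and the deposited values were varied.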

Additional observations from a re-analysis of the deposited data

Results flagged for a closer look

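Among 27 sets of 6 array or goat values tested, 0 held a value far from the other 5.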

How the results depend on the processing

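The ratio of CSN1S1 lay between -2.79 and -2.32 in 20 alternatives and passed in 19 of them. Without moderation of the variance it was -2.43 with a limma adjusted p of 0.852 (unadjusted p = 0.00267), and 0 probes passed there, while 346 had an unadjusted p below 0.05. Against CSN1S2 and CSN3, the CSN1S1 difference was -2.81 with pixel medians, -2.13 with Low in Cy5 alone and -2.79 with Low in Cy3 alone. CSN1S2 passed with Low in Cy5 alone (-0.36) and turned to 0.22 with Low in Cy3 alone. Both CSN3 probes passed in 0 of 20 alternatives.

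The count of probes that passed was 7. It was 4 without background correction, 3 with background subtracted, 2 with either spot alone or no filter on dim probes, and 1 with a trended, robust variance, all lower in Low. It was 963 with Low in Cy5 alone (514 lower, 449 higher) and 442 with Low in Cy3 alone (239 lower, 203 higher), where dye effects stay in the ratio. With the pair as a random block and a dye term it was 32 (28 lower, 4 higher), and HSD11B1 passed (limma adjusted p = 0.00561). The consensus correlation between arrays of the same pair was 0.016 there. That fit thus counted them nearly as independent, although they come from the same goats and the pair is the replicate.

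Leaving out each pair in turn gave 2 to 32 probes (2 to 23 lower, 0 to 9 higher), with 2 without pair 2 and 32 without pair 3. It gave -2.54 to -2.32 for CSN1S1, -0.16 to 0.0067 for CSN1S2, -0.06 to 0.32 for the brighter and -0.11 to 0.25 for the dimmer CSN3 probe, and -2.53 to -2.41 for the CSN1S1 difference. The cause of these shifts was not tested.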
